A study of Mus musculus with 8 samples.

Results

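A group of 9 genes that mark or build the early endoderm were followed in mouse embryonic stem cells with and without the chromatin remodeller INO80. They were taken by symbol from the deposited tables, and all 9 were found among the 24505 genes of each table. They are the transcription factors Gata4, Gata6, Sox17, Sox7 and Hnf4a, the receptor gene Pdgfra, the endocytic adaptor gene Dab2, and the genes of the secreted proteins Cer1 and Afp. In the libraries labelled knockout of the naive state Gata6 and Pdgfra stood higher and Sox17 lower than in wild type, with no overlap between the groups. Of all genes 19.2% separated upward in this way and 13.5% downward, so such counts among 9 genes are near the background. In the primed state 8 of the 9 stood below wild type, as did 78.3% of all genes. Dab2 was the single member of 3 tested that passed, called lower there as 59.3% of all genes tested were. It had entered the test through wild-type libraries alone.

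The endoderm factors belong to lineages that are set apart early in development. GATA6 sets the primitive endoderm apart from the epiblast of the blastocyst under the influence of FGF signalling, and GATA4, SOX17, SOX7 and HNF4A act after it as the layer matures into parietal and visceral endoderm. PDGFRA is an early surface marker of that layer, DAB2 is needed for its sorting and for uptake of cargo in visceral endoderm, CER1 is secreted by anterior visceral endoderm and holds back Nodal, BMP and Wnt signals, and AFP is a carrier protein of visceral endoderm and fetal liver. The promoters of many such developmental genes are bivalent in embryonic stem cells, which means that an activating and a repressive histone mark lie on them together. The title of the series names bivalency, and its design text asks how deletion of INO80 alters RNA and chromatin in both states of pluripotency.

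RNA was sequenced in 8 libraries, 2 labelled wild type and 2 labelled knockout in each state. All came from an embryonic stem cell line with a conditional Ino80 allele (INO80 CKO), kept naive in N2B27 with PD0325901, an inhibitor of MEK, CHIR99021, an inhibitor of GSK3, and 1000 units per ml of LIF, or primed in N2B27 with 12 ng per ml of FGF-2, 20 ng per ml of Activin A and 2 uM of XAV-939, an inhibitor of tankyrase. The protocol gives cells 100 nM of 4-OHT, the ligand of an inducible recombinase, for 2 days and harvests them 2 days later. It stands under every sample alike and does not say whether the wild-type cultures were treated. MEK, blocked in the naive medium, lies downstream of the FGF receptors. Nothing in the labels says whether both libraries of a group were grown apart, so p-values measure the spread between these libraries only, which may be technical.

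Values are RPKM, reads per gene length and library size, which the authors scaled further by a method not given in the sources used here. Depth is unknown, and the states were not tested against each other because they appear to have been scaled apart. Differences are knockout minus wild type of log2(RPKM + 1) ± SE, tested with limma and Benjamini-Hochberg adjustment at 0.05 over the 13428 genes that reached 1 RPKM in 2 libraries or more. The scale of a library bears on every low value. In each state many unrelated genes lie on 1 common curve through the 4 libraries, 4897 genes naive and 5400 primed. Of these, 2026 and 2188 fall into 157 and 171 sets of 5 or more genes with equal values in all 4 libraries. The median of the genes on the curve differed between the naive wild-type libraries by 2.2 on the log2 scale and between knockout and wild type of the primed state by -1.53. What the authors did with genes without reads is not stated. Beside the RPKM, the percentile of a gene among all genes of its own library is therefore given, which no scaling of a whole library alters. In bulk RNA, fewer cells of a type and less RNA per cell cannot be told apart.

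The labels were checked first. Ino80 stood at 17 and 14.5 RPKM in naive wild type and at 15.9 and 15.1 RPKM in the naive libraries labelled knockout, which lie between the wild-type values (difference -0.02 ± 0.18, limma adjusted p = 0.975). Primed wild type held 15.9 and 20.3 RPKM of Ino80 and primed knockout 9.12 and 8.74 RPKM, a change of -0.93 ± 0.18 (limma adjusted p = 2e-06). The median of all genes tested was 0.05 for naive and -0.53 for primed cells. Reads of exons that a deletion leaves in place enter the same value, so Ino80 is a weak check, and the naive samples are called labelled knockout throughout. Pou5f1, the pluripotency factor OCT4, had a mean of 653 RPKM in naive and 582 RPKM in primed wild type. The 10 markers of the naive state summed to between 880 and 991 RPKM in the naive libraries and to between 12 and 28.6 RPKM in the primed ones.

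The members were weakly expressed in every group. Their 9 values summed to 7.99 and 3.95 RPKM in naive wild type, to 7.14 and 5.19 RPKM in naive labelled knockout, to 3.94 and 6.16 RPKM in primed wild type and to 2.33 and 2.22 RPKM in primed knockout. In naive wild type Gata4 led with 2.36 ± 0.706 RPKM (SD, n = 2), followed by Dab2 at 1.04 ± 0.626, Sox17 at 0.758 ± 0.38, Gata6 at 0.693 ± 0.298 and Hnf4a at 0.637 ± 0.409 RPKM. Both Gata4 libraries lay above all others, while the libraries of the next 4 genes overlapped with their neighbours in this order. Dab2 led in primed wild type with 2.46 ± 0.778 RPKM, with Gata4 next at 1.9 ± 0.572 RPKM, and every other member lay under 0.3 RPKM there. Only Gata4, Gata6 and Dab2 met the minimum for the test. Gata6 met it through the naive libraries labelled knockout alone, and Dab2 through wild-type libraries alone (naive replicate 1 and both primed ones). Entry through the group where a gene is high favours a difference in that direction. For all 9 members a fit over all 24505 genes with no minimum is therefore given as well.

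**Figure D1:**
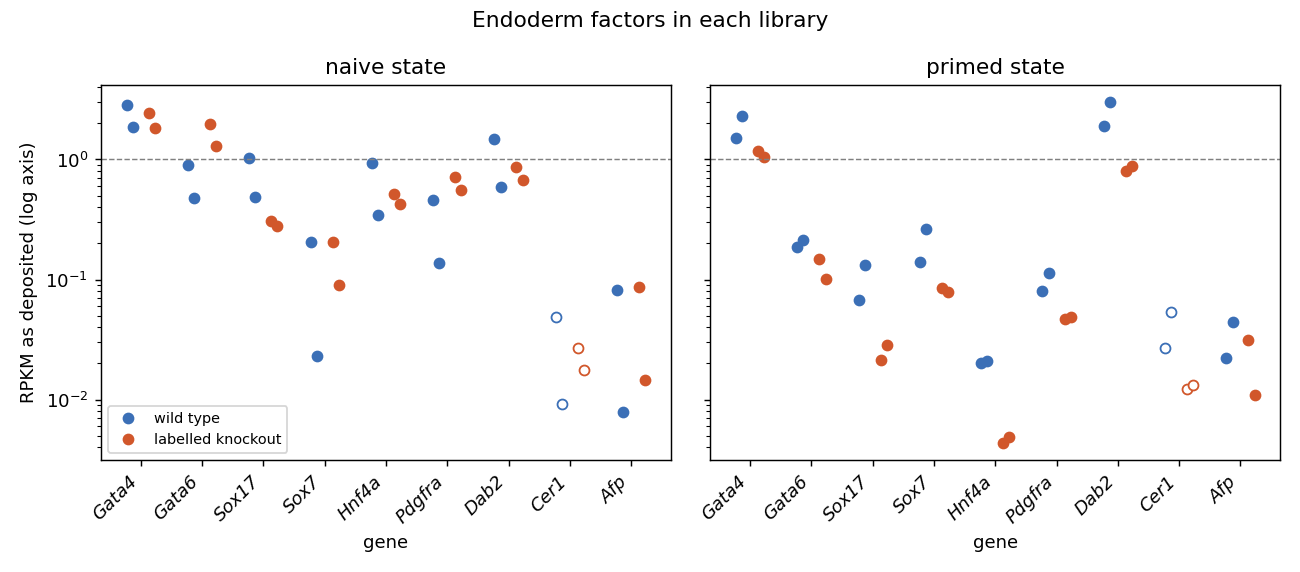
RPKM of each endoderm gene in each library on a log axis, naive left and primed right, wild type in blue and labelled knockout in orange, 2 points per group; open points are values on the curve shared by unrelated genes, and the dashed line is the 1 RPKM minimum. Naive Gata6 and Pdgfra lie higher and Sox17 lower in the libraries labelled knockout, and 8 of 9 genes lie lower in primed knockout.

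Gata6 was higher in the naive libraries labelled knockout. It stood at 0.903 and 0.482 RPKM in wild type and at 1.99 and 1.3 RPKM in labelled knockout, a ratio of the means of 2.38. Both libraries labelled knockout lay above both wild-type libraries, which 19.2% of all genes did in the naive state. The percentile of Gata6 moved the same way, from 47.5 and 49.7 to 55.9 and 54.0, and such a separation of percentiles upward was met by 29.0% of all genes. The difference of 0.64 ± 0.24 did not pass the test (limma adjusted p = 0.0617, 11.9% of genes called). It passed with no minimum (0.64 ± 0.18, limma adjusted p = 0.0301, 2.6% called higher) and after quantile normalization with no minimum (0.64 ± 0.093, adjusted p = 0.00573, 16.9% called higher). With no minimum and the values as deposited, the call did not hold without naive wild-type replicate 2 (0.46, adjusted p = 0.0844), naive labelled-knockout replicate 1 (0.46, adjusted p = 0.378) or either primed knockout library (adjusted p = 0.117 and 0.124), while after quantile normalization it held without each library.

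Primed Gata6 was not called as deposited. It stood at 0.185 and 0.215 RPKM in wild type and at 0.147 and 0.102 RPKM in knockout, so both knockout libraries lay lower, but its percentile (37.1 and 34.3 against 39.3 and 36.7) overlapped between the groups. The difference of -0.093 ± 0.24 did not pass (limma adjusted p = 0.756), and its sign turned with quantile normalization (0.071, adjusted p = 0.514). With median centring Gata6 was called higher (0.60, limma adjusted p = 0.00694). Median centring shifts every gene of a library alike, and the median of all genes tested moved from -0.53 to 0.16. A gene this low can hardly fall on log2(RPKM + 1), so no rise can be read from that call. The knockout difference of primed minus naive was -0.74 ± 0.34 for Gata6 and did not pass (limma adjusted p = 0.0606, 49.6% of genes called).

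Gata4, the partner of GATA6 in primitive endoderm and later in heart, showed no separation in the naive state. Its RPKM were 2.86 and 1.86 in naive wild type and 2.43 and 1.83 in labelled knockout, 4 overlapping values (difference -0.091 ± 0.28, limma adjusted p = 0.911). Primed Gata4 stood at 1.5 and 2.31 RPKM in wild type and at 1.18 and 1.05 RPKM in knockout. Both primed knockout libraries were the lower, but the difference of -0.44 ± 0.28 did not pass (limma adjusted p = 0.149), and against the other genes Gata4 went up, from percentiles of 53.3 and 53.4 to 55.4 and 54.8. The percentile of 31.5% of all genes separated upward in that comparison. After quantile normalization the difference was 0.21 (limma adjusted p = 0.0309) and with median centring 0.25 (adjusted p = 0.0386), so the direction of primed Gata4 rests on the scaling.

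The relatives and partners of these factors gave few values to test, 3 of 8. For naive cells 0 of the 3 were called by limma, 0 also at an unadjusted p under 0.05 and after quantile normalization, and 2 were called lower for primed cells, with a list median of -0.70 beside -0.53 over all genes tested, or 1 higher and 1 lower after quantile normalization. Of all genes tested 59.3% were called lower there as deposited. After quantile normalization 4300 of the 13428 were called higher and 3658 lower for naive cells, and 5239 and 4708 for primed cells. The 2 called, Gata3 and Zfpm2, reached 1 RPKM in primed wild type alone, so their entry to the test favoured a fall. Gata3, a GATA factor of trophoblast and ectoderm, stood at 1.93 and 3.35 RPKM in primed wild type and at 0.507 and 0.654 RPKM in knockout (change -1.18 ± 0.25, limma adjusted p = 1.2e-05). The GATA cofactor gene Zfpm2 fell from 1.73 and 2.25 to 0.813 and 0.855 RPKM (change -0.70 ± 0.26, limma adjusted p = 0.0123). The Zfpm2 call did not hold after quantile normalization (-0.07, limma adjusted p = 0.47) or without primed wild-type replicate 2 or either primed knockout library (adjusted p = 0.0758, 0.115 and 0.107). Gata2, Gata1 and Gata5 were under 0.5 RPKM in every library.

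Sox17, the SoxF factor of definitive and extraembryonic endoderm, went the opposite way to Gata6 in the naive state. Wild type held 1.03 and 0.489 RPKM of Sox17 and labelled knockout 0.306 and 0.278 RPKM, a ratio of wild type over labelled knockout of 2.59. Both libraries labelled knockout were the lower, a separation met by 13.5% of all genes in the naive state. Its percentile fell from 49.0 and 49.8 to 39.1 and 40.7, and 39.1% of all genes separated downward by percentile. With no minimum the change was -0.43 ± 0.11 (limma adjusted p = 0.014, 2.85% called lower), and -0.44 ± 0.032 after quantile normalization (adjusted p = 0.00062, 15.2% called lower). Without naive wild-type replicate 1 the value as deposited was -0.20 (adjusted p = 0.0749), and without naive labelled-knockout replicate 2 it was -0.41 (adjusted p = 0.0744), while after quantile normalization the call held without each library.

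Primed Sox17 was lower still, at 0.0676 and 0.132 RPKM in wild type and 0.0215 and 0.0285 RPKM in knockout. Both knockout libraries lay below wild type, also by percentile (27.8 and 28.5 against 16.5 and 23.9), as 51.4% of all genes did by percentile. The difference of -0.10 ± 0.11 did not pass with no minimum (limma adjusted p = 0.475, 36.6% of all genes called lower), and its values were close to the medians of the shared curve, 0.0486 and 0.0958 RPKM in wild type and 0.023 and 0.0244 RPKM in knockout. Sox7, the other SoxF member, overlapped between the naive groups at 0.205 and 0.0229 against 0.207 and 0.0904 RPKM (0.047 ± 0.074, limma adjusted p = 0.98 with no minimum). Primed Sox7 stood at 0.14 and 0.264 RPKM in wild type and at 0.0852 and 0.0789 RPKM in knockout, but its percentiles overlapped (35.1 and 36.1 against 35.7 and 34.6) and its difference did not pass (limma adjusted p = 0.113 with no minimum).

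Hnf4a, a nuclear receptor of visceral endoderm and liver, overlapped between the naive groups. Naive wild type held 0.926 and 0.348 RPKM and labelled knockout 0.517 and 0.423 RPKM, and the difference of -0.13 ± 0.11 did not pass with no minimum (limma adjusted p = 0.802). After quantile normalization it was -0.12 ± 0.02 (limma adjusted p = 0.0106), but not called without either naive library labelled knockout (adjusted p = 0.0518 and 0.0523). In primed cells Hnf4a was among the lowest values, at 0.0202 and 0.0211 RPKM in wild type and 0.00436 and 0.0049 RPKM in knockout, with percentiles of 6.3 and 1.2 against 0.9 and 0.9. These values lie below the median of the shared curve in the same libraries, so no change could be read from them. Of 12 other endoderm transcription factors 5 were tested. For naive cells limma called 0 of these, with 1 at an unadjusted p under 0.05 and 2 called lower after quantile normalization, and for primed cells as deposited Eomes was the only one called, up from 1.07 and 1.3 to 6.64 and 6.55 RPKM (1.80 ± 0.28, limma adjusted p = 5.8e-10). Of all 13428 genes tested 4.16% were called higher there as deposited and 59.3% lower. After quantile normalization 3 of the list were called higher and 1 lower, beside 5239 and 4708 over all genes, and 3658 were lower for naive cells. With no minimum Foxa2, at 0.114 and 0.0717 against 0.697 and 0.477 RPKM, was called higher as well (0.53, limma adjusted p = 1.1e-05), among 562 of 24505 genes. Eomes acts in the primitive streak, definitive endoderm and trophoblast, and T, another streak gene, stood at a mean of 35.5 ± 2.63 RPKM in primed knockout against 2.42 ± 0.674 in wild type.

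**Figure D2:**
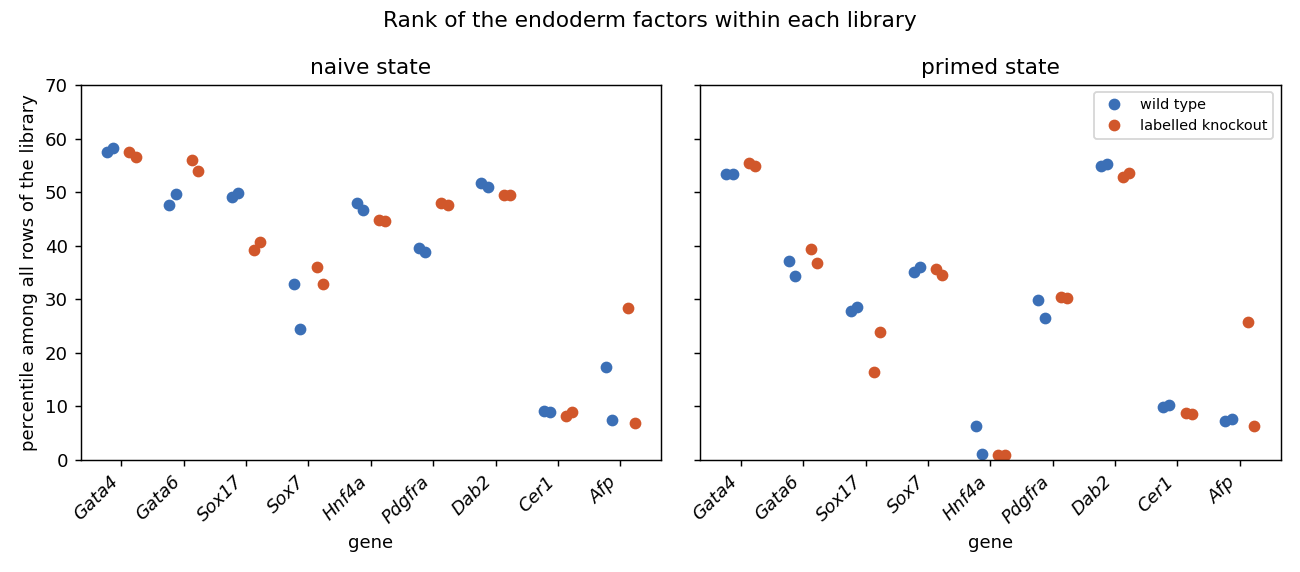
Percentile of each endoderm gene among all genes of its own library, naive left and primed right, wild type in blue and labelled knockout in orange, 2 points per group. Naive Gata6 and Pdgfra sit higher and Sox17 lower in labelled knockout, and the primed shift of most genes seen in RPKM is small by percentile.

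Pdgfra, the receptor of PDGF ligands on primitive endoderm, was higher, as Gata6 was, in the naive libraries labelled knockout. It stood at 0.463 and 0.138 RPKM in wild type and at 0.713 and 0.555 RPKM in labelled knockout, a ratio of the means of 2.11. Both libraries labelled knockout were the higher, and their percentiles of 48.0 and 47.6 lay above 39.6 and 38.8 in wild type. Such separations upward were met by 19.2% of all genes in RPKM and by 29.0% in percentile. With no minimum the change was 0.34 ± 0.10 (limma adjusted p = 0.0438), and after quantile normalization 0.37 ± 0.017 (adjusted p = 0.00018). As deposited, the call did not hold without naive wild-type replicate 2 (0.16, adjusted p = 0.287), naive labelled-knockout replicate 1 (0.27, adjusted p = 0.309) or either primed knockout library (adjusted p = 0.0885 and 0.0872), while after quantile normalization it held without each library. Primed Pdgfra was at 0.08 and 0.114 RPKM in wild type and at 0.047 and 0.0485 RPKM in knockout, above the medians of the shared curve, and did not pass (limma adjusted p = 0.619 with no minimum). By percentile both knockout libraries were the higher instead, at 30.5 and 30.2 against 29.8 and 26.5, and the difference of -0.066 turned to 0.019 after quantile normalization (limma adjusted p = 0.406), so the direction of primed Pdgfra rests on the scaling too.

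The promoter of Pdgfra is shown because the gene was called with no minimum in the naive comparison and CpG-rich promoters are those on which bivalency is usually found. The 250 bases before its RefSeq start (GRCm38.p6, plus strand, chr5:75152001-75152250) hold 4 CpG, printed in capitals, beside a median of 6 over 32536 RefSeq promoters. No chromatin data were used here.
Pdgfra: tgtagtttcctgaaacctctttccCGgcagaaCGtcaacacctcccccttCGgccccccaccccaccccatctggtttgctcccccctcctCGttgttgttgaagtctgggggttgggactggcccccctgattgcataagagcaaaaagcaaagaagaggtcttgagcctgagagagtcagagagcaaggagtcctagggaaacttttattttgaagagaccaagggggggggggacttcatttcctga

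The PDGF ligands and the other receptors moved in both directions. Of 6 genes 5 were tested, with 1 called higher and 1 lower for naive and 0 higher and 3 lower for primed cells, where the list median was -0.72 beside -0.53 over all genes tested. Over all 13428 genes tested 816 were called higher and 786 lower for naive cells, and 59.3% lower for primed cells. The primed count is near that share. After quantile normalization the primed count was 2 higher and 2 lower, with a median of 0.05, beside 5239 higher and 4708 lower over all genes tested. Pdgfa, the main ligand of PDGFRA, was at 74.6 and 85.4 RPKM in naive wild type and 108 and 108 RPKM in labelled knockout (0.44 ± 0.14, limma adjusted p = 0.0201). Pdgfrb, the sister receptor of mesenchyme, fell from 2.32 and 1.12 to 0.714 and 0.51 RPKM in the same comparison (-0.72 ± 0.25, limma adjusted p = 0.0366) and from 0.963 and 1.29 to 0.171 and 0.147 RPKM in the primed one (-0.87 ± 0.25, limma adjusted p = 0.00131). Pdgfrb too reached 1 RPKM in wild-type libraries alone, so its entry to the test favoured a fall. The naive calls rest on single libraries. That of Pdgfa was lost without naive wild-type replicate 1 or either naive library labelled knockout (differences of 0.34, 0.44 and 0.43). That of Pdgfrb was lost without naive wild-type replicate 1 or any library labelled knockout of either state (differences of -0.82 to -0.40). Pdgfrl, a receptor-like gene, fell from 13.8 and 19.9 to 4.33 and 4.64 RPKM in primed knockout (-1.68 ± 0.26, limma adjusted p = 1e-09), and Pdgfb was called lower there as deposited only, since its sign turned after quantile normalization (-0.72 against 0.05).

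Dab2, the adaptor that links cargo receptors to clathrin, was the member called in the primed comparison. It stood at 1.91 and 3.01 RPKM in primed wild type and at 0.805 and 0.881 RPKM in knockout, a ratio of wild type over knockout of 2.91. Both knockout libraries were the lower, and the percentile moved from 54.9 and 55.3 to 52.9 and 53.6, a separation downward that 51.4% of all genes showed. The change was -0.89 ± 0.26 (limma adjusted p = 0.00171), in a comparison where 59.3% of the genes tested were called lower and 4.16% higher. Since Dab2 reached the minimum in wild-type libraries alone, its entry to the test favoured a fall. The change was -0.22 ± 0.062 after quantile normalization (limma adjusted p = 0.013), where 5239 genes were called higher and 4708 lower in place of 559 and 7958. The call did not hold with median centring (-0.19, limma adjusted p = 0.191) or without primed knockout replicate 1 (adjusted p = 0.0521). With no minimum it was lost after loess normalization (-0.24, limma adjusted p = 0.0607) and, as deposited, without either naive library labelled knockout, primed wild-type replicate 2 or either primed knockout library (adjusted p = 0.0584 to 0.22).

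In the naive state Dab2 overlapped between the groups, at 1.48 and 0.594 against 0.867 and 0.68 RPKM (-0.17 ± 0.26, limma adjusted p = 0.797). By percentile both libraries labelled knockout were the lower, at 49.4 and 49.4 against 51.7 and 50.9, as they were for 39.1% of all genes. After quantile normalization naive Dab2 was called lower (-0.18, limma adjusted p = 0.0365, or 0.0466 with no minimum), and the latter call was lost without each of the 8 libraries in turn (adjusted p = 0.0557 to 0.189). The difference between the states was not called (-0.72 ± 0.37, limma adjusted p = 0.0907). Fibroblast markers were lower in primed knockout too, in a comparison where 59.3% of all genes tested were called lower as deposited. The count was 4708 of 13428 after quantile normalization. All 6 tested of 8 were called lower as deposited and 3 after quantile normalization, their sum stood at 54.1 and 73 RPKM in wild type and 29.9 and 26.2 RPKM in knockout, and Col3a1 led them with a mean of 23.5 RPKM in wild type. Other lists fell as well, with 3 lower and 1 higher of 5 neural markers and 5 lower and 1 higher of 8 primed-state markers. The part of any of these in the Dab2 result was not tested.

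Dab2 has 2 RefSeq starts, and both promoters are shown because they differ in CpG content and 1 RPKM value per gene cannot tell which start was used. The first window (GRCm38.p6, plus strand, chr15:6299539-6299788) holds 2 CpG, with 1 match to a GATA motif (searched as AGATAA and as TGATAA and with a final letter changed as AGATAG and as TGATAG, on both strands), as 26.5% of all promoter windows do. The second (chr15:6386498-6386747) holds 17 CpG, more than 76.3% of RefSeq promoters have, and no GATA match. CpG are in capitals.
Dab2, first start: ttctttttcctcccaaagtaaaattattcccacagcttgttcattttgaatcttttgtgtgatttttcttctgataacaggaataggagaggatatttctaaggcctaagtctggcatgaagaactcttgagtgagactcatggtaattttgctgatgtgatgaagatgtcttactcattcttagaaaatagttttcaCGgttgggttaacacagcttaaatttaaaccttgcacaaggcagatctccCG
Dab2, second start: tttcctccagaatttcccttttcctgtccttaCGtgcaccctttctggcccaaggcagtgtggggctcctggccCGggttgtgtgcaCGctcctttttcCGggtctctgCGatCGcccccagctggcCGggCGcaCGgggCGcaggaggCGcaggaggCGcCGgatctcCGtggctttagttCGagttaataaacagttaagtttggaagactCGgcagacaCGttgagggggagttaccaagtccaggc

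The clathrin machinery around Dab2 was expressed in all groups, and 13 of 13 genes were tested. In the naive comparison 816 of all 13428 genes tested were called higher. Among the 13 this was 1 gene, Cltb, a clathrin light chain (13.2 and 11.2 against 20.8 and 18 RPKM, 0.63 ± 0.21, limma adjusted p = 0.0247). The Cltb call was lost without naive wild-type replicate 2 or any library labelled knockout of either state (differences of 0.52 to 0.72). In primed knockout 7 were called lower and 1 higher, with a median of -0.39 beside -0.53. This share is near the 59.3% of all genes tested called lower. After quantile normalization 5 were called higher and 5 lower, beside 5239 higher and 4708 lower over all genes tested. Eps15, an endocytic scaffold, fell from 30.3 and 37.4 to 13.8 and 13 RPKM (-1.27 ± 0.16, limma adjusted p = 2.1e-14), and the motor gene Myo6, whose product binds DAB2, from 8.3 and 11.2 to 3.61 and 3.77 RPKM (-1.18 ± 0.26, adjusted p = 1.9e-05).

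**Figure D3:**
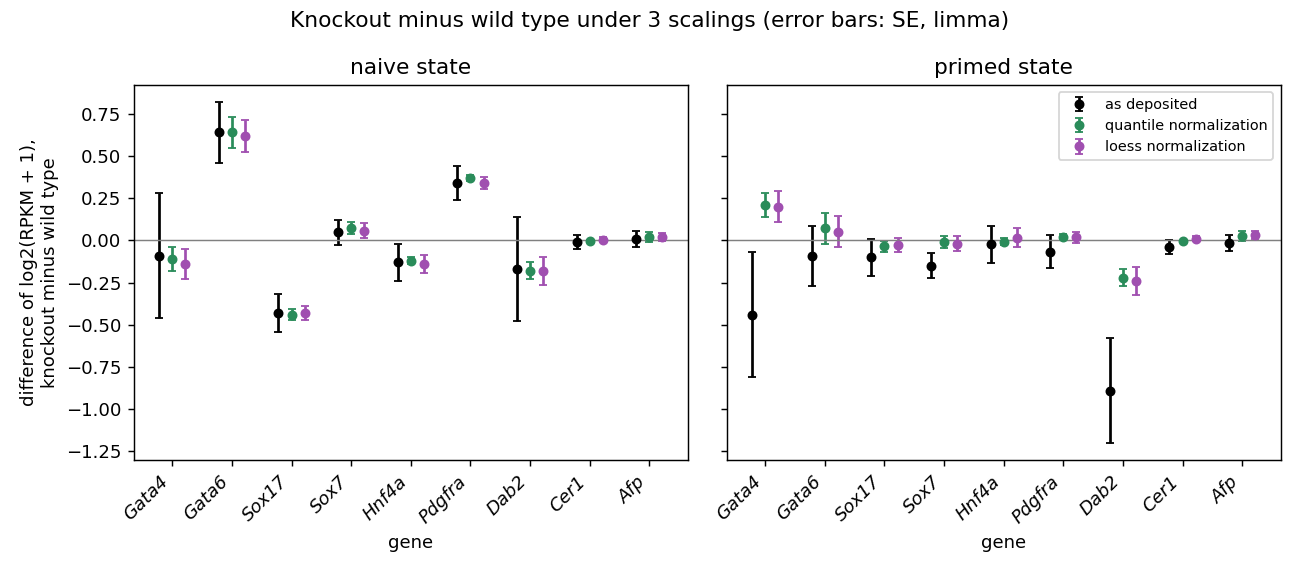
Difference of log2(RPKM + 1), knockout minus wild type, for each endoderm gene with no minimum, naive left and primed right, as deposited (black), after quantile (green) and after loess normalization (purple); bars are the SE from limma over 8 libraries. The naive values of Gata6, Pdgfra and Sox17 are alike under all 3 scalings. The primed values of Gata4, Gata6, Pdgfra and Afp change sign between deposited and quantile-normalized values.

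Cer1 carried no value of its own. It lay on the shared curve in both states, at 0.0489 and 0.00914 RPKM in naive wild type and 0.0268 and 0.0175 RPKM in labelled knockout, and at 0.0267 and 0.0538 RPKM against 0.0122 and 0.0132 RPKM in the primed state. The other 8 members lay off the curve in both states. Of the DAN family, to which CER1 belongs, and the Nodal pathway 13 of 16 genes were tested, with 2 called higher and 0 lower for naive and 0 higher and 8 lower for primed cells (median -0.82 beside -0.53), near the share of 59.3% over all genes. Over all 13428 genes tested 816 were called higher and 786 lower for naive cells. After quantile normalization the counts of the list were 7 higher and 4 lower for naive and 4 higher and 6 lower for primed cells (median -0.10). Over all genes tested they were then 4300 higher and 3658 lower for naive and 5239 higher and 4708 lower for primed cells. Nodal itself stood at 43.5 and 42.4 RPKM in naive wild type and 63.3 and 62.4 RPKM in labelled knockout (0.54 ± 0.12, limma adjusted p = 0.00015, but 0.0625 without naive labelled-knockout replicate 1), and its coreceptor gene Tdgf1 at 126 and 145 against 206 and 211 RPKM (0.63 ± 0.08, adjusted p = 3e-12). In primed knockout Nodal went the other way, from 40.7 and 51.2 to 25.3 and 21.8 RPKM (-0.93 ± 0.12, limma adjusted p = 7.6e-14), and the difference between the states was -1.47 (adjusted p = 2.2e-16). Lefty1, a Nodal antagonist and target, fell from 248 and 287 to 21.3 and 18.8 RPKM in primed knockout (-3.67 ± 0.19, limma adjusted p = 4.2e-81).

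Afp was near the lower end in every library. It stood at 0.0816 and 0.00794 RPKM in naive wild type and 0.0861 and 0.0146 RPKM in labelled knockout, and at 0.0224 and 0.0446 against 0.0312 and 0.0109 RPKM in the primed state. Its groups overlapped in both states, and it did not pass in either (limma adjusted p = 0.98 and 0.773 with no minimum). Of 17 genes of visceral endoderm carriers and endocytosis 5 were tested. For naive cells 2 were called lower and 0 higher, and for primed cells 4 lower and 0 higher, with a median of -1.98 beside -0.53. Among the 4 primed, Rbp4 reached 1 RPKM in wild-type libraries alone, so its entry to the test favoured a fall. Of all 13428 genes tested 786 were called lower for naive cells and 59.3% for primed cells. After quantile normalization the list held 4 lower and 0 higher for naive and 4 lower and 1 higher for primed cells. Over all genes tested these counts were then 3658 lower and 4300 higher for naive and 4708 lower and 5239 higher for primed cells. Lrp2, the megalin receptor, fell from 27.1 and 33.5 to 5.61 and 5.4 RPKM in primed knockout (-2.26 ± 0.24, limma adjusted p = 1.8e-19), and Apoe from 130 and 158 to 39.1 and 32.5 RPKM (-1.98 ± 0.09, adjusted p = 9e-99). The carriers Ttr and Alb, which define the layer as Afp does, were under 0.1 RPKM in every library.

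FGF signalling acts on Gata6 in the blastocyst, and the 9 listed genes of its pathway, inputs as well as targets and feedback genes, were all tested. In the naive comparison 4 of 9 were called higher and 0 lower, and the list median was 0.18 beside 0.05. The 4 called were targets or feedback genes of the pathway. Its ligand, receptor and adaptor genes Fgf4, Fgfr1, Fgfr2 and Grb2 were not called (differences of 0.09, 0.18, 0.15 and 0.02). Over all 13428 genes tested, 816 were called higher and 786 lower there. Spry4, a feedback inhibitor, stood at 1.73 and 1.14 RPKM in wild type and 6.42 and 4.89 RPKM in labelled knockout (1.45 ± 0.22, limma adjusted p = 7.3e-09), and the target gene Etv4 at 41.6 and 41.1 against 74 and 73.4 RPKM (0.82 ± 0.10, adjusted p = 2.4e-13). The ligand gene Fgf4 fell from 5.4 and 6.83 to 0.422 and 0.464 RPKM in primed knockout (-2.30 ± 0.20, limma adjusted p = 1.4e-28), among 3 called lower and 2 higher as deposited and 1 lower and 7 higher after quantile normalization. As deposited 59.3% of all genes tested were called lower in that comparison and 4.16% higher. After quantile normalization 5239 of the 13428 were called higher there and 4708 lower. Fgfr2, among the 3 called lower as deposited, reached 1 RPKM in primed wild type alone, so its entry to the test favoured a fall. Of 11 basement membrane and parietal endoderm genes 10 were tested. In the naive comparison 2 rose and 2 fell, beside the 816 higher and 786 lower over all genes tested. The gene that fell beside Nid1 reached 1 RPKM in wild-type libraries alone, so its entry to the test favoured a fall. Sparc, a matrix protein, went from 59.1 and 60.6 to 110 and 112 RPKM (0.88 ± 0.09, limma adjusted p = 6.3e-19), and Nid1 from 53 and 52.6 to 37.5 and 38.8 RPKM (-0.46 ± 0.15, adjusted p = 0.0238). The naive Nid1 call was lost without any 1 naive library or either primed knockout library (limma adjusted p = 0.0575 to 0.445). In the primed comparison 2 were called higher and 4 lower as deposited, with a median of -0.47, and 5 higher and 3 lower after quantile normalization, with a median of 0.17. The 4 of 10 lower stand beside 59.3% of all genes tested, and the quantile-normalized counts beside 5239 higher and 4708 lower.

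**Figure D4:**
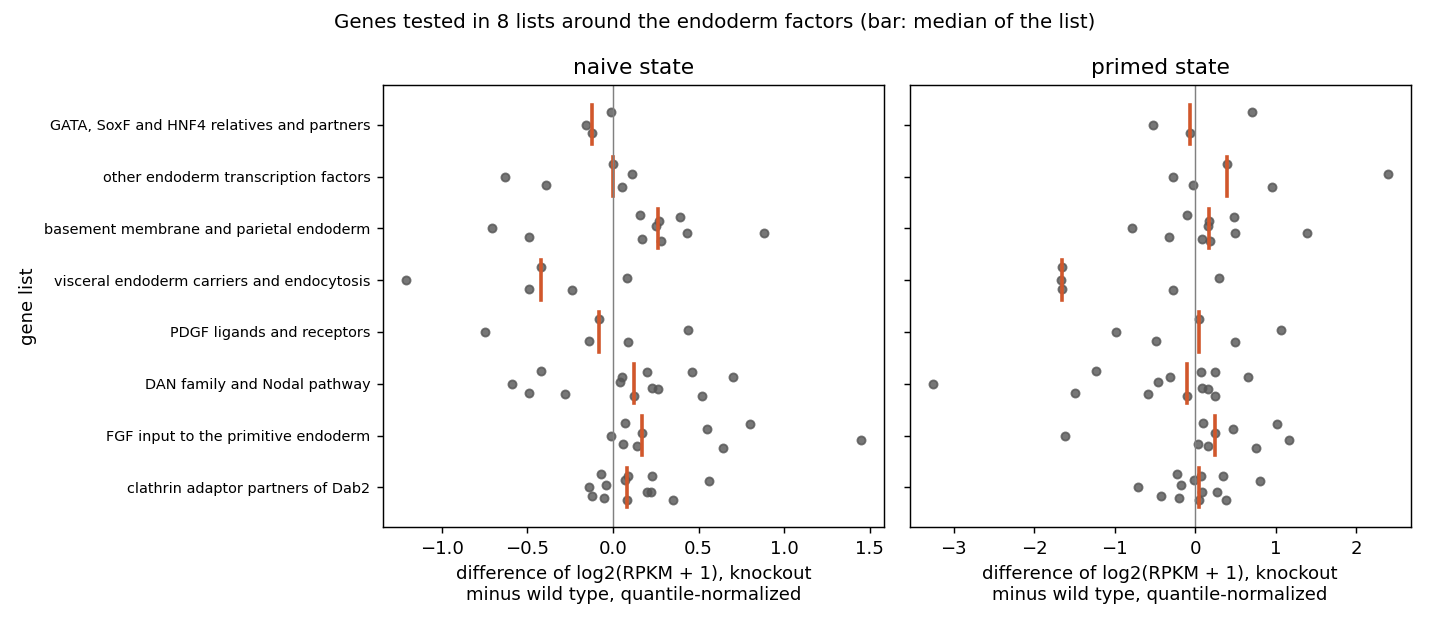
Difference of log2(RPKM + 1), knockout minus wild type, after quantile normalization for the tested genes of 8 lists around the endoderm factors, naive left and primed right; each point is a gene and each bar the median of its list. The visceral endoderm list has the lowest median in both states, from 5 tested genes.

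Between the states, the knockout difference of the members was set against itself with no minimum and quantile-normalized values. Gata6 (-0.57 ± 0.13, limma adjusted p = 0.0236) and Pdgfra (-0.35 ± 0.024, adjusted p = 0.00041) had a lower difference in primed than in naive cells, and Sox17 (0.41 ± 0.045, adjusted p = 0.00192) and Hnf4a (0.11 ± 0.028, adjusted p = 0.037) a higher one. Primed wild type held at most 0.191 RPKM of Gata6, 0.0835 of Pdgfra, 0.0745 of Sox17 and 0.0203 of Hnf4a on these values. Since log2(RPKM + 1) understates changes there, the test cannot tell a response of 1 state from a primed value too low to move. In deposited log2 RPKM Sox17 fell further in primed (-1.94) than in naive cells (-1.28). The values of Hnf4a were -2.16 and -0.28, but its primed level was too low for a change to be read. Gata6 and Pdgfra kept their direction. The shared curve moved by -1.53 in primed cells. The calls of Pdgfra and Sox17 held without each library. That of Gata6 was lost without naive wild-type replicate 1, either primed wild-type library or primed knockout replicate 2 (limma adjusted p = 0.0576 to 0.0778), and that of Hnf4a without either naive library labelled knockout or any primed library (adjusted p = 0.0805 to 0.112). The background was 37.4% of all genes called for this difference and 47.1% in the primed comparison. Of the 9 members Dab2 alone was called in the primed comparison on these values (-0.22, limma adjusted p = 0.0185), though not without primed wild-type replicate 2 (adjusted p = 0.0869) or primed knockout replicate 1 (adjusted p = 0.0877). In deposited RPKM both primed knockout libraries lay above wild type for 0 of 9 members and 5.1% of all genes. The genes whose pattern over the 8 libraries was most like a tested member, by Pearson r after quantile normalization and removal of each state's mean, were Plscr2 (r = 0.987) and Gli1 (r = 0.984) for Gata6, Sgcb (0.99) and Siah2 (0.989) for Dab2, and Cxx1a (0.977) and Tcp11 (0.964) for Gata4, out of 12728 genes. The libraries share their scaling, and with 2 per group such values describe these libraries only.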

How the data were processed

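RNA of 8 libraries was analysed, 2 per group. The deposited RPKM values were made by the authors with cutadapt 1.9, STAR 2.5.2b, featureCounts 1.5.1 and affy on mm9, per the submitters' processing notes; ERCC RNA was added to the lysates and ribosomal RNA removed, per the labels' protocols. Strand, annotation and the further scaling are not given in the sources used here, the tables hold 0 ERCC entries and no value of 0, and depth is unknown. Values were taken as log2(RPKM + 1), a scale that understates changes of low genes, and fitted as 4 group means over all 8 libraries in limma 3.58.1 (R 4.3.3) with an intensity trend. As deposited, the prior degrees of freedom were infinite beside 4 residual ones, so each variance comes from the trend. The procedure was tested on simulated data. The members, the lists and the rule for naming genes (all members, Ino80, up to 3 called genes per direction of a list with the largest change, relatives, and the 2 nearest patterns) were chosen with earlier results of these data known. A gene that the rule selects is not reported here. The shared curve of a state runs through sets of 5 or more genes with equal values in all its libraries, and genes within 0.001 log2 of it were placed on it. RefSeq promoters (GRCm38.p6) were matched by symbol for 5 of 9 members. The alternatives were a pseudocount of 0.1, no minimum, a minimum of 5 RPKM, median centring, quantile and loess normalization, no trend, library weights, the replicate block, each state alone and leaving out each library. Quantile and loess normalization with no minimum, and leaving out libraries with no minimum, were added after seeing the data. Figures were drawn with matplotlib 3.10.9.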

Additional observations from a re-analysis of the deposited data

Results flagged for a closer look

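In the fit with no minimum the knockout difference was called unlike between the states for 3 genes, by a test of the difference itself, primed minus naive. The value was -0.74 for Gata6 (limma adjusted p = 0.0349), -0.41 for Pdgfra (adjusted p = 0.0375) and -0.91 for Ino80 (adjusted p = 0.0046). Primed wild type held means of 0.2 RPKM of Gata6 and 0.097 RPKM of Pdgfra, where log2(RPKM + 1) can hardly fall. For these genes the test cannot tell a response of 1 state from a primed value too low to move. Without 1 library, the Gata6 call was lost for 6 of the 8 libraries, all but naive wild-type replicate 1 and naive labelled-knockout replicate 2 (limma adjusted p = 0.0519 to 0.243). That of Pdgfra was lost without naive wild-type replicate 2, naive labelled-knockout replicate 1, primed wild-type replicate 2 or either primed knockout library (adjusted p = 0.106 to 0.156), and that of Ino80 without naive labelled-knockout replicate 1 (adjusted p = 0.054). At the planned minimum of 1 RPKM the Gata6 difference did not pass (limma adjusted p = 0.0606), Pdgfra was not tested and that of Ino80 passed (adjusted p = 0.00203). With median centring the Gata6 difference was 0.01 (limma adjusted p = 0.965) and that of Ino80 -0.16 (adjusted p = 0.214). No group holds enough libraries for a test of single stray samples.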

How the results depend on the processing

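With 2 libraries per group, unknown depth and an unstated scaling, low values of the members limit what can be read. Of 2192 alternatives over 70 gene results, 1686 kept direction and side of the threshold, 121 newly passed, 200 no longer passed, 83 moved and 102 reversed; the cause was not tested. As deposited 1602 genes were called in the naive comparison. The count was 4456 with median centring, 7958 after quantile and 7596 after loess normalization, 908 with no trend and 2526 in each state alone, and between 552 and 2946 without 1 library. The primed count of 8517 ranged from 5539 to 9960 and that of the difference, 6658, from 3457 to 9269 without 1 library. The primed split of 559 higher and 7958 lower became 5580 and 3163 with median centring, 5239 and 4708 after quantile and 4657 and 5045 after loess normalization, and that of the difference, 290 and 6368, became 3922 and 2291, 4513 and 4149, and 4218 and 4182. Primed Gata4 reversed to 0.25 with median centring, 0.21 after quantile and 0.20 after loess normalization (the same values with no minimum), its difference between the states to 0.40, 0.32 and 0.34. Primed Gata6 reversed to 0.60, 0.07 and 0.05, and the Gata6 and Dab2 differences to 0.01 and 0.03 with median centring. Median centring shifts every gene of a library alike, also genes too low to fall, such as primed Gata6. Primed Nid1 reversed to 0.18, 0.18 and 0.14, Etv5 to 0.39, 0.10 and 0.05, Fgfr2 to 0.15 and 0.03 with median centring and quantile, and Pdgfb to 0.05 and 0.03 after quantile and loess normalization. Over all fits without 1 library, which include those after quantile normalization with no minimum, the range was -0.31 to 0.12 for naive, -0.65 to 0.24 for primed and -0.57 to 0.39 for the difference of Gata4, -0.12 to 0.12 for primed Gata6, -0.49 to 0.15 for naive Dab2 and -1.04 to 0.01 for its difference, -0.13 to 0.09 for naive Ino80, and in the primed state -0.70 to 0.20 for Nid1, -0.93 to 0.08 for Pdgfb, -0.72 to 0.04 for Fgfr2 and -0.37 to 0.13 for Etv5. After quantile normalization with no minimum and without 1 library, the reversed values were 0.17, 0.20, 0.21 and 0.24 for primed Gata4 and 0.25, 0.28, 0.31, 0.33, 0.36 and 0.39 for its difference, 0.02, 0.03, 0.07, 0.11 and 0.12 for primed Gata6, 0.00 and 0.01 for the Dab2 difference, 0.17, 0.18 and 0.20 for Nid1, 0.02, 0.04, 0.05, 0.06 and 0.08 for Pdgfb, 0.01, 0.02, 0.03 and 0.04 for Fgfr2 and 0.06, 0.08, 0.10, 0.11 and 0.13 for Etv5, and with no minimum alone 0.05 and 0.12 for naive Gata4, 0.15 for naive Dab2 and 0.02 and 0.09 for naive Ino80. The lone library of a group is there assumed to vary like the others. With the replicate block 1120, 7622 and 5133 genes were called, and Dab2 primed stayed called (-0.89, limma adjusted p = 0.00644). The numbers share no stated pairing, and same-numbered deviations correlated at 0.31 between naive groups and at -0.04 between primed groups.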
